A study of Mus musculus with 8 samples.

Results

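Transcripts of 8 cytokine genes were followed in macrophages and microglia of the injured mouse retina: Il1a, Il1b, Il1rn, Tnf, Il6, Il10, Il18 and Osm. The genes were chosen by name, as the interleukin-1 (IL-1) and tumour necrosis factor (TNF) cytokines and their close functional relatives, and all 8 were found among the 22558 gene symbols listed. Messenger RNA was sequenced from 4 libraries of infiltrating macrophages, numbered 5 to 8, and 4 libraries of microglia, numbered 1 to 4. Both populations came from retinas of mice of about 5 months on day 7 after injury, and the comparison addresses how they differed at that time. Every mouse was heterozygous for Msi1-CreERT2, a tamoxifen-activated Cre under control of Msi1, and for R26R-DTA, which makes diphtheria toxin A in cells where Cre has acted, on a mixed C57BL/6 and 129 background. No group without these alleles and no uninjured retina was compared, so the values describe the populations relative to each other. How the cells were separated, and whether each library came from an animal of its own, is not in the labels; p-values therefore reflect the spread of these libraries alone, and that spread may be technical.

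IL-1α and IL-1β, the products of Il1a and Il1b, bind the same receptor and signal through the adaptor MyD88 to the transcription factor NF-κB. The receptor antagonist encoded by Il1rn occupies that receptor without signalling. IL-1α is active as its precursor, whereas IL-1β and IL-18 are made as inactive precursors that caspase-1 cuts in the inflammasome. TNF is shed from the cell surface by ADAM17 and signals through its own pair of receptors, also to NF-κB. Interleukin-6 and oncostatin M, the product of Osm, share the receptor subunit gp130, which activates JAK kinases and STAT3. Interleukin-10 also acts through STAT3 and restrains the production of inflammatory cytokines. In nervous tissue, microglia and recruited macrophages are recognised sources of these cytokines after damage.

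The Il1a and Il1b genes lie next to each other on chromosome 2, on the same strand. In the mm9 build used by the deposited tables, Il1a spans chr2:129125346-129135708 and Il1b spans chr2:129190316-129196856, with 54.6 kb between them. Il1rn, at chr2:24192380-24207011, lies on the same chromosome but 105 Mb away. The other genes are on chromosome 17 (Tnf, chr17:35336336-35338941), chromosome 5 (Il6, chr5:30339701-30346508), chromosome 1 (Il10, chr1:132916422-132921547), chromosome 9 (Il18, chr9:50373473-50389942) and chromosome 11 (Osm, chr11:4136788-4141029).

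The 250 bases before the annotated start are printed for 4 of the cytokines, because Il1a and Il1b are the neighbouring IL-1 agonists and Tnf and Il6 are classical NF-κB targets among the other members. They are from RefSeq's promoter table of the GRCm38.p6 build, in which 6 of the 8 cytokines had an entry. The stretches are chr2:129309973-129310222 for Il1a, chr2:129371140-129371389 for Il1b and chr17:35202008-35202257 for Tnf, all on the minus strand, and chr5:30012864-30013113 for Il6 on the plus strand. Capitals mark matches to 4 motifs searched on both strands: an NF-κB motif (GGNNTTTCC), an AP-1 motif (TGANTCA), a C/EBP motif (TTNNGCAAT) and the TATA box (TATAAA).
Il1a: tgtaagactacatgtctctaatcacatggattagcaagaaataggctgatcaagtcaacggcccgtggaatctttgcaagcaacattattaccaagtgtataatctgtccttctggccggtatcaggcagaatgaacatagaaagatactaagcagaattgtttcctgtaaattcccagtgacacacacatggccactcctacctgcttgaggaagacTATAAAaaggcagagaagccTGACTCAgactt
Il1b: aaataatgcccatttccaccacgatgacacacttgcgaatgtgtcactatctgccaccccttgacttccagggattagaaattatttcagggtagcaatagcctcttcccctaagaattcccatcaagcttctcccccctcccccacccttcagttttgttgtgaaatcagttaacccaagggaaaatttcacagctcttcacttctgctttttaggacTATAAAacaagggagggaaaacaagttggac
Tnf: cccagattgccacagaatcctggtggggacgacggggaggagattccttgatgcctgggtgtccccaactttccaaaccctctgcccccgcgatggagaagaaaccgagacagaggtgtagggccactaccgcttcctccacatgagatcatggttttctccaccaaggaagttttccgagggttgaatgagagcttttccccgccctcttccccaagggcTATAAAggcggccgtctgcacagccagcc
Il6: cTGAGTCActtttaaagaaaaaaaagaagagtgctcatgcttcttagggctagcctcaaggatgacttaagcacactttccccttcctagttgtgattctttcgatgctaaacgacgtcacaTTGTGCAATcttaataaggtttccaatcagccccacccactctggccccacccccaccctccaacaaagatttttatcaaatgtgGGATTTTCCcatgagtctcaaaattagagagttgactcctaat
The TATA box stood close to the start in Il1a (32 to 27 bases before it), Il1b (31 to 26) and Tnf (29 to 24). Of the 32851 promoters, 12.4% held these letters. This share and those below count a match anywhere in the 250 bases, on either strand. The AP-1 motif was found in Il1a, 12 to 6 bases before the start, and in Il6, 249 to 243 bases before it (6.75% of promoters). Il6 also held the NF-κB motif, 43 to 35 bases before the start (4.93% of promoters), and the C/EBP motif, 128 to 120 bases before it (1.93%). No matches overlapped each other. Among the entries not printed, Il1rn held the AP-1 motif, 141 to 135 bases before the start, and in another entry the NF-κB motif (50 to 42). Il18 held the TATA letters on the opposite strand, 175 to 170 bases before the start. A match describes the letters and does not show that a factor binds there.

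Levels are given as FPKM, fragments per kilobase of transcript after normalisation for library size, so that different genes can be compared within a library. Estimated depth was between 21.6 and 24.3 M fragments in the macrophage libraries and between 11.6 and 20.7 M in the microglial libraries, and 1 fragment on a transcript of 2 kb equalled 0.0223 to 0.0465 FPKM. Each difference is the macrophage mean minus the microglial mean of log2(FPKM + 1), a scale on which the change of low genes is understated. Tests were made with limma over 9352 genes that reached 1 FPKM in 4 or more of the libraries, and a gene with a Benjamini-Hochberg adjusted p below 0.05 is said to be called. The labels held for Sall1 and Ccr2. Sall1, a microglial transcription factor, was at 0 to 0.0352 FPKM in macrophages against 8.61 to 26.8 FPKM in microglia. Ccr2, the monocyte chemokine receptor, was at 2.64 to 99.4 FPKM in macrophages against 0.000678 to 1.53 FPKM in microglia. The 14 monocyte and macrophage markers summed to 360, 1159, 99.9 and 462 FPKM in macrophages 5 to 8, against 45.0 to 97.8 FPKM in microglia. Macrophages 7 was thus close to the microglial range on this sum. All the same, 8 of 12 microglial markers were at 1 FPKM or more in every macrophage library, and the 12 summed to between 721 and 2445 FPKM there, against 2653 to 4087 FPKM in microglia. Microglia 2 stood apart, with 19.9% of the tested genes listed at 0 against 0.470% to 5.88% in the other 7 libraries. The FPKM of all genes summed to 300731, 512049, 207077 and 242139 in macrophages 5 to 8, against 295881 to 392753 in microglia. Macrophages 6 thus had the largest sum, but not every gene was high there. It listed 8981 genes at 0, against 4721, 6322 and 4624 in macrophages 5, 7 and 8. Y-linked RNA summed to 0.0107 to 1.97 FPKM in the macrophage libraries, against 25.8, 11.7 and 16.5 FPKM in microglia 1 to 3 and 0.0533 FPKM in microglia 4, so the sex of the animals cannot be fully told apart from the population. An exact 0 may be a failed estimate, so such values are described as listed at 0 and the group gets no mean.

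Il1b was the most abundant of the 8 cytokines in 3 of 4 macrophage libraries and in 1 of 4 microglial libraries, but no single cytokine was called different. By limma, 0 of the 7 cytokines tested were called, against 2.34% of all 9352 genes (1.65% higher and 0.695% lower), and Il10 was too low to be tested. At an unadjusted p below 0.05, Il1b (higher) and Tnf (lower) stood out, which is 2 of 7 against 15.0% of all genes (11.6% higher and 3.42% lower). Without microglia 2 and 3, 0 of the 7 were called against 1.75% of all genes. With a term for Y-linked expression, a fit that rests largely on microglia 4 for its contrast, 0 were called against 0.267%. The exact permutation test, whose smallest possible p is 0.0286, put 0 of the 7 below an unadjusted 0.05, against 7.63% of all genes. Such a p is reached here only where the populations do not overlap, so the overlap restates this result for the tested genes. The libraries of the populations overlapped for all 8 cytokines, while they did not overlap for 7.63% of the genes tested. The intervals below are wide, and a p above the threshold does not show that the levels were alike. In bulk libraries, fewer cells making a transcript and less of it per cell cannot be told apart.

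**Figure D1:**
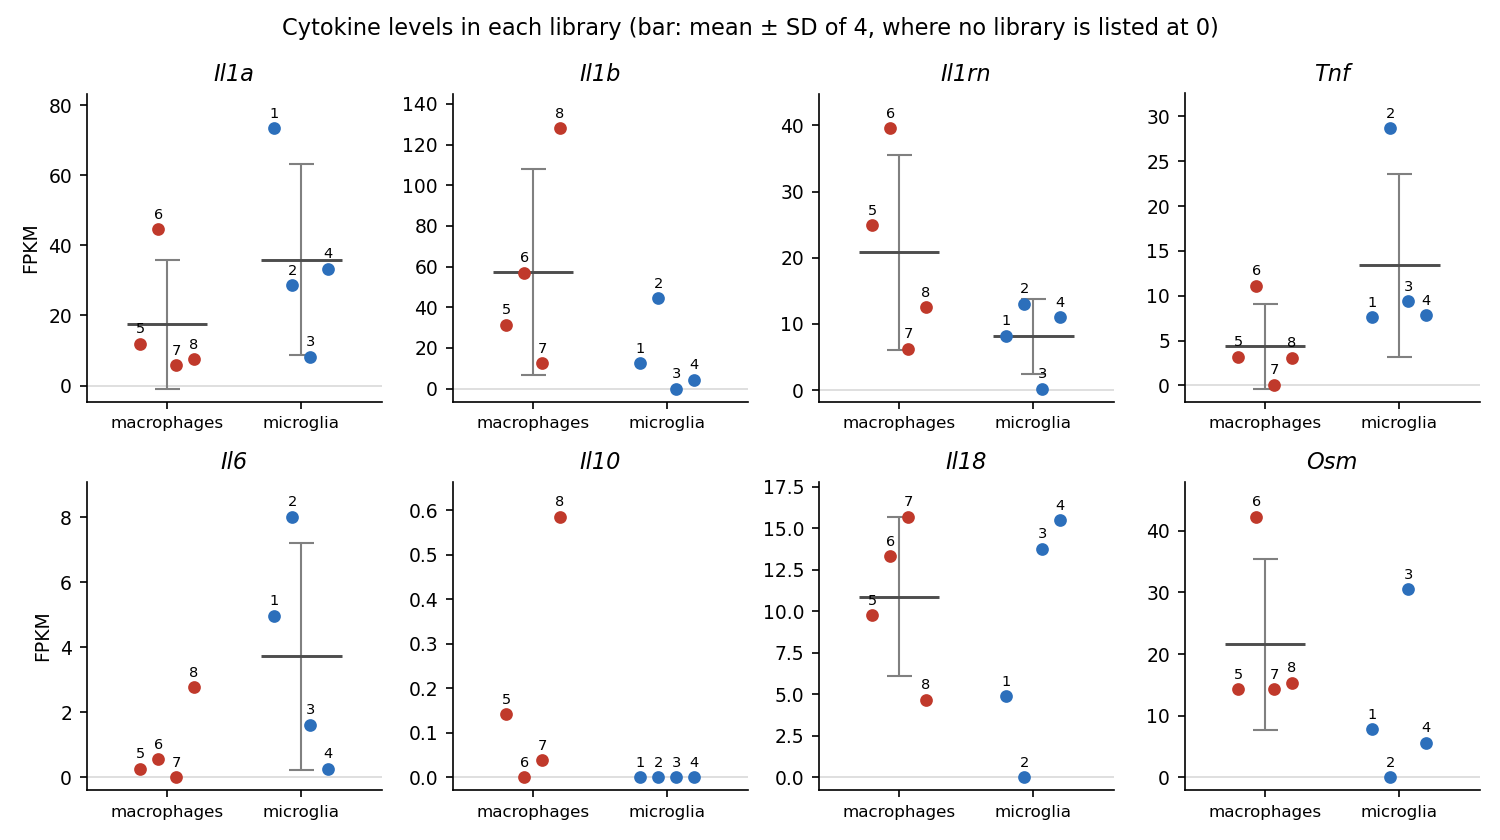
FPKM of each of the 8 cytokines (vertical axes, each panel with its own scale) in macrophages 5 to 8 (red, left) and microglia 1 to 4 (blue, right), with the library number at each point and the mean ± SD of 4 where no library is listed at 0. The highest Il1b value is 128 FPKM in macrophages 8, microglia 3 lists it at 0, and the populations overlap in every panel.

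Il1b, the inducible IL-1 agonist, had 31.4, 57, 12.6 and 128 FPKM in macrophages 5 to 8, against 12.5, 44.5, 0 and 4.49 FPKM in microglia 1 to 4. Macrophages 8 was far above every other library, microglia 2 fell within the macrophage range, and the macrophage value was the higher in 14 of the 16 pairs of libraries. The difference was 2.48 ± 0.87 (SE; 95% interval 0.68 to 4.28), which limma did not call (adjusted p = 0.163). Single libraries moved this result both ways: the difference was 3.34 without microglia 2 (adjusted p = 0.0131, called), but 1.51 without microglia 3 (adjusted p = 0.375) and 1.95 without macrophages 8 (adjusted p = 0.467). Among the tested genes of each library, Il1b stood at percentiles 79.6 to 97.4 in macrophages and at 72.1, 88.2, 0 and 43.5 in microglia 1 to 4.

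Il1a, the IL-1 agonist that is active without cleavage, ran the other way. It had 12, 44.7, 5.73 and 7.44 FPKM in macrophages 5 to 8, against 73.5, 28.7, 8.20 and 33.4 FPKM in microglia 1 to 4. Macrophages 6 was above microglia 2, 3 and 4, and microglia 3 lay within the range of the other macrophage libraries. Means were 17.4 ± 18.3 FPKM in macrophages and 35.9 ± 27.3 FPKM in microglia (SD, n = 4 each). The difference of -1.10 ± 0.70 (SE; 95% interval -2.53 to 0.34) was not called by limma (adjusted p = 0.475). It was -0.64 without microglia 1, -1.68 without macrophages 6 and -1.90 without microglia 2 and 3 together.

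Il1rn, the receptor antagonist, had 24.9, 39.5, 6.24 and 12.5 FPKM in macrophages 5 to 8, against 8.20, 13, 0.223 and 11 FPKM in microglia 1 to 4. The lowest value was that of microglia 3, which was also the library with Il1b listed at 0, and macrophages 7 lay below 3 of the microglial libraries. Means were 20.8 ± 14.7 FPKM in macrophages and 8.11 ± 5.62 FPKM in microglia (SD, n = 4 each), a difference of 1.44 ± 0.77 (SE; 95% interval -0.15 to 3.03) that limma did not call (adjusted p = 0.390). Without microglia 3 the difference was 0.63 (adjusted p = 0.728), without microglia 2 and 3 it was 0.77 (adjusted p = 0.867), and adding the term for Y-linked expression gave 0.47.

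The relation of the 2 agonists and their antagonist was also read within each library, as ratios of FPKM, which are descriptions with no test. Il1b over Il1a was 2.63, 1.28, 2.20 and 17.2 in macrophages 5 to 8, against 0.170, 1.55, 0 and 0.134 in microglia 1 to 4. Il1b was thus the more abundant agonist in 4 of 4 macrophage libraries and in 1 of 4 microglial libraries. Il1rn over the sum of both agonists was 0.575, 0.389, 0.341 and 0.0924 in macrophages 5 to 8, against 0.0954, 0.178, 0.0272 and 0.291 in microglia 1 to 4. Agonist RNA exceeded antagonist RNA in every library. The lowest of the macrophage ratios belonged to macrophages 8, the library with the most Il1b. The macrophage libraries averaged 0.349 ± 0.199 (SD, n = 4) and overlapped the microglial ones; no microglial mean is given, because Il1b was listed at 0 in microglia 3.

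Il18, the other caspase-1 substrate, had 9.75, 13.3, 15.7 and 4.67 FPKM in macrophages 5 to 8, against 4.88, 0, 13.8 and 15.5 FPKM in microglia 1 to 4. Apart from the 0 in microglia 2, both populations covered much the same range. The difference was 0.84 ± 0.80 (SE; 95% interval -0.81 to 2.49; limma adjusted p = 0.669), and it was -0.04 without microglia 2. Il18 was the highest of the 8 cytokines in macrophages 7, where Il1b, Il1a, Il1rn and Tnf had their lowest values among the macrophage libraries.

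Tnf had 3.20, 11.1, 0.0590 and 3.07 FPKM in macrophages 5 to 8, against 7.63, 28.7, 9.41 and 7.84 FPKM in microglia 1 to 4. The value in macrophages 7 corresponds to about 2.04 fragments. Only macrophages 6 reached into the microglial range, being above microglia 1, 3 and 4. Means were 4.35 ± 4.72 FPKM in macrophages and 13.4 ± 10.2 FPKM in microglia (SD, n = 4 each). The difference was -1.69 ± 0.76 (SE; 95% interval -3.27 to -0.11) and was not called by limma (adjusted p = 0.301). It lay between -1.07 (without macrophages 7) and -2.24 (without macrophages 6) when 1 library was left out, and was -1.93 in the fit with the Y-linked term.

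Il6 was low throughout, with 0.264, 0.558, 0 and 2.77 FPKM in macrophages 5 to 8, against 4.98, 8.01, 1.61 and 0.259 FPKM in microglia 1 to 4. The lowest detected values rest on few fragments, about 6.01 in macrophages 5 and 5.02 in microglia 4. Microglia 1 and 2 were above every macrophage library, and microglia 4 was below 3 of them. The difference of -1.14 ± 0.64 (SE; 95% interval -2.46 to 0.17) was not called by limma (adjusted p = 0.413), and it was -0.71 without microglia 2 and -0.26 in the fit with the Y-linked term.

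Osm had 14.3, 42.3, 14.3 and 15.4 FPKM in macrophages 5 to 8, against 7.80, 0, 30.5 and 5.6 FPKM in microglia 1 to 4. Macrophages 5, 7 and 8 lay close together, macrophages 6, the library with the largest FPKM sum, stood well above them, and microglia 3 was the only microglial library above the lower macrophage values. The difference was 1.62 ± 0.80 (SE; 95% interval -0.04 to 3.28; limma adjusted p = 0.349), with the macrophage value the higher in 13 of 16 pairs. The value rests on single microglial libraries: it was 0.72 without microglia 2, which lists Osm at 0 (adjusted p = 0.704), and 2.38 without microglia 3 (adjusted p = 0.132). With both left out it was 1.4.

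Il10 was listed at 0 in all 4 microglial libraries and in macrophages 6. The other macrophage libraries had 0.141 FPKM (macrophages 5), 0.0379 FPKM (macrophages 7) and 0.585 FPKM (macrophages 8), which correspond to about 3.98, 1.02 and 15 fragments. Il10 RNA was thus above a few fragments in macrophages 8 alone. No fold is given against a group listed at 0.

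**Figure D2:**
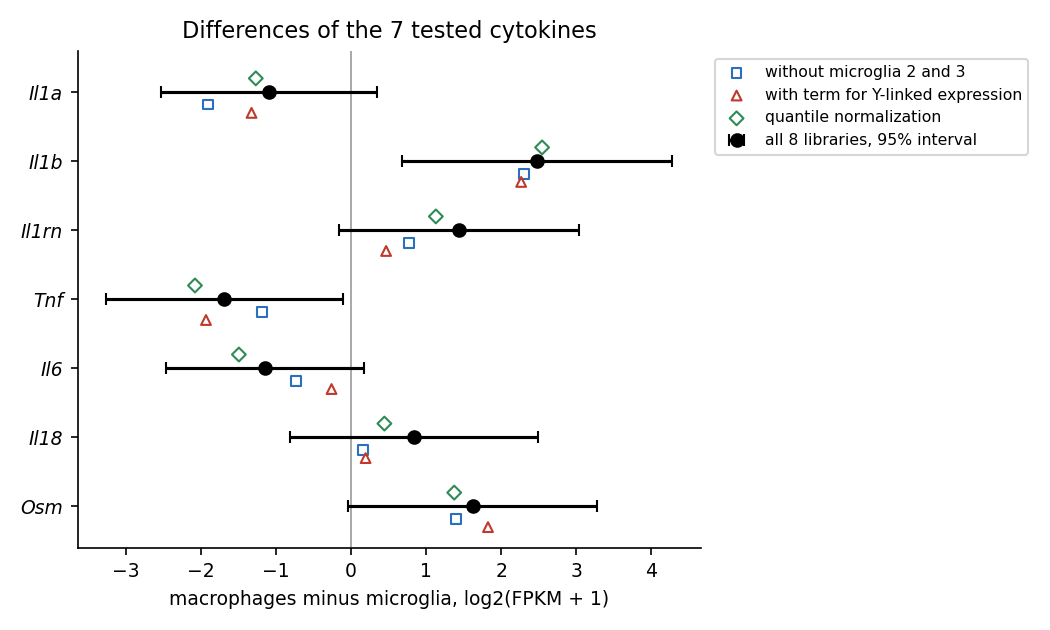
Difference of the 7 tested cytokines (horizontal axis, macrophages minus microglia in log2(FPKM + 1) units). Black points with bars are the limma estimate and its 95% interval over all 8 libraries, and open symbols are the estimates without microglia 2 and 3, with the Y-linked term, and after quantile normalization. Il1b and Tnf have intervals that leave out 0, on opposite sides, and each open symbol is on the same side of 0 as its black point.

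The other scalings left each direction as it was: after quantile normalization the differences were 2.55 for Il1b, 1.13 for Il1rn, -1.27 for Il1a, -2.08 for Tnf and -1.49 for Il6. The median of all tested genes was 0.37 in the values as deposited and -0.03 after quantile normalization, so the positive differences are to be read against a general shift towards macrophages. The differences of Il1a, Tnf and Il6 lay against that shift. The median of the 7 cytokines was 0.84, with 4 positive and 3 negative, and it was 0.16 without microglia 2 and 3 and 0.44 after quantile normalization.

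The make-up of the cytokine RNA gives the same levels as shares within each library. The 8 genes summed to 95.9, 208, 54.6 and 174 FPKM in macrophages 5 to 8, against 119, 123, 63.7 and 78.1 FPKM in microglia 1 to 4. Il1b was the largest share in macrophages 5 (32.8%), 6 (27.3%) and 8 (73.4%), and Il18 in macrophages 7 (28.7%). In microglia the leading gene was Il1a in libraries 1 (61.5%) and 4 (42.8%), Il1b in library 2 (36.2%) and Osm in library 3 (47.9%). Macrophages 8 was therefore the library most given over to a single cytokine, and microglia 3 was the only library led by Osm.

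**Figure D3:**
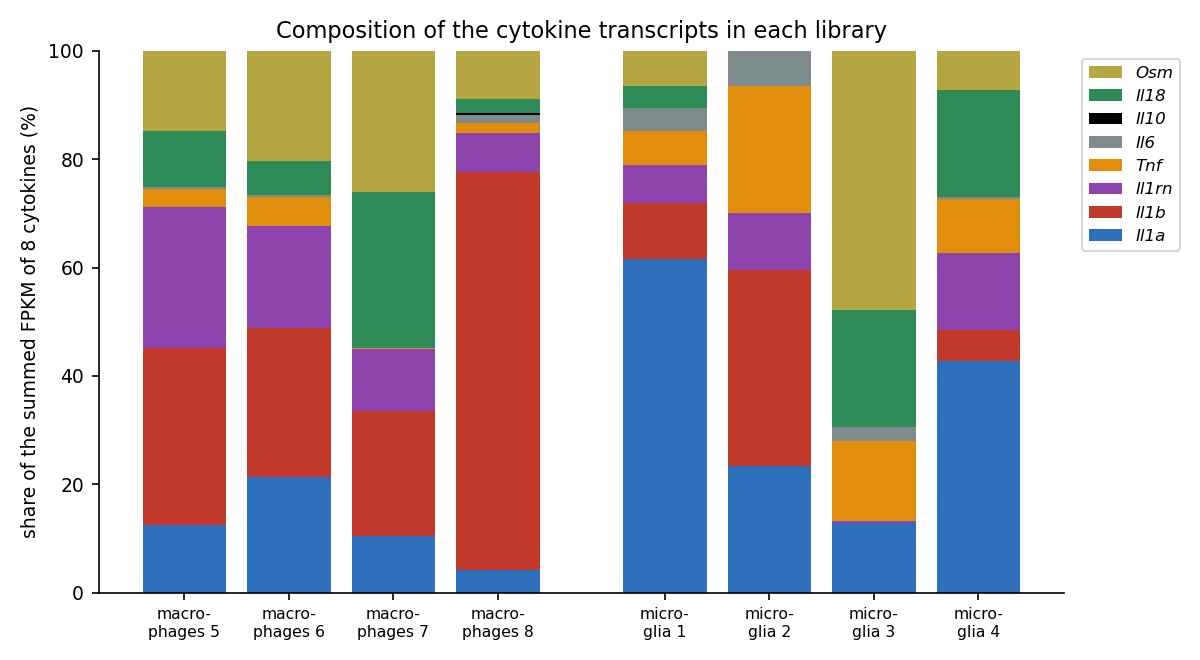
Share of each cytokine in the summed FPKM of the 8 genes (vertical axis, percent) in macrophages 5 to 8 (left) and microglia 1 to 4 (right). Il1b (red) takes 73.4% in macrophages 8, Il1a (blue) 61.5% in microglia 1 and Osm (ochre) 47.9% in microglia 3.

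By the median over libraries, the order in macrophages was Il1b (44.2 FPKM), Il1rn (18.7), Osm (14.8), Il18 (11.5), Il1a (9.70), Tnf (3.13), Il6 (0.411) and Il10 (0.0896). Il1b over Il1rn, Il1a over Tnf and Tnf over Il6 held in 4 of 4 macrophage libraries. Il1rn exceeded Osm, and Il18 exceeded Il1a, in 1 of 4, so the order of the genes between Il1b and Tnf is not settled by these libraries. In microglia the order was Il1a (31.0 FPKM), Il1rn (9.60), Il18 (9.32), Tnf (8.62), Il1b (8.48), Osm (6.70), Il6 (3.30) and Il10, with a listed 0 ranked lowest. Il1a was above Il1rn in 4 of 4 microglial libraries, while from Il1rn down to Osm each gene exceeded the next in 2 of 4.

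Cells other than macrophages and microglia could carry some of these transcripts. Of the sums of their markers that follow, the neutrophil sum alone did not overlap between the populations. The 15 listed neutrophil markers summed to 61.3, 267, 155 and 95 FPKM in macrophages 5 to 8, against 27.6 to 51.8 FPKM in microglia, where Csf3r alone made up 26 to 36.3 FPKM. Csf3r went against the other tested markers of the list, with 9.07 to 15.2 FPKM in macrophages (difference -1.34, no overlap, limma adjusted p = 0.242). S100a8, S100a9 and Retnlg were at 0 in all 4 microglial libraries, and S100a8 and S100a9 encode calcium-binding proteins. These 3 of the 6 tested markers were called higher in macrophages, against 1.65% of all genes. Of the 15 listed markers, 4 were at 0 in every macrophage library and 8 in every microglial library. Ngp and Stfa2l1 were at 0 in all 8 libraries. The neutrophil sum was highest in macrophages 6, the library with the largest FPKM sum, where Osm, Il1rn, Il1a and Tnf were also highest among macrophages. The 12 dendritic markers summed to 90.8, 103, 17.8 and 211 FPKM in macrophages 5 to 8, against 6.14 to 39.0 FPKM in microglia, an order over the macrophage libraries that Il1b and Ccr2 shared. Markers of T and NK cells (11 listed) summed to 1.79 to 9.12 FPKM against 0.059 to 2.67 FPKM, with 6 of them at 0 in every microglial library. Erythroid markers summed to 0.693 to 23.7 FPKM in macrophages, against 160, 165, 2437 and 0.683 FPKM in microglia 1 to 4, and microglia 3, the highest, was the library led by Osm and with Il1b listed at 0. The 16 retinal neuron markers summed to 5.72 to 61.9 FPKM in macrophages, against 37.8 to 238 FPKM in microglia. All 7 tested were negative, while 67.1% of all genes were positive. Of the 7, 0 were called by limma and 3 had an unadjusted p below 0.05, against 3.42% of all genes lower at that p. The 12 Müller cell and astrocyte markers summed to 7112 to 15105 FPKM in macrophages, against 2011 to 8453 FPKM in microglia. Only 3 of the 12 were at 1 FPKM or more in every macrophage library, and 4 in every microglial library. Of the 5 tested, 2 were positive and 3 negative, with a median of -0.61. Vim was called higher and Slc1a3 lower, against 1.65% of all genes called higher and 0.695% lower. The sum and most of the tested genes thus went opposite ways, so the sum is not read as an amount of Müller cell or astrocyte RNA. Immediate-early and heat-shock genes respond to cell handling. They summed to 1652, 927, 383 and 1088 FPKM in macrophages 5 to 8, against 232 to 437 FPKM in microglia. Of the 17 tested, Hspa1a and Hspa1b were called higher by limma, against 1.65% of all genes. At an unadjusted limma p below 0.05, 7 of the 17 were higher, against 11.6% of all genes. The part of these cells and of handling in the cytokine values was not tested.

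The genes around the cytokines were taken from 14 lists of receptors, signalling proteins, processing enzymes and related ligands, of which 121 of 193 genes passed the filter. Myd88, Nlrp1b and Jak2 were called higher in macrophages and 0 were called lower, a share of 2.48% against 2.34% of all genes. The median difference was 0.60 over the 121 genes and 0.37 over all genes tested, and 101 were positive and 20 negative (83.5% positive, against 67.1% of all genes). At an unadjusted p below 0.05, 31 of the 121 were higher and 2 (Pycard and Csf1) were lower, against 11.6% higher and 3.42% lower of all genes. The same shares over all genes are to be held beside the counts of each list below. The populations did not overlap for 13 of the 121 genes (10.7%, against 7.63% of all genes). Without microglia 2 and 3 the medians were 0.61 and 0.17, and after quantile normalization 0.15 and -0.03. All 3 calls were lost with the Y-linked term (Jak2 1.95, Myd88 1.71 and Nlrp1b 2.29; adjusted p of 0.611 or more). They were also lost with a pseudocount of 0.1, where the differences were larger (4.27, 2.75 and 4.01; adjusted p of 0.0859 to 0.107), and without the filter, where the differences were the same and the adjusted p 0.197 to 0.339. Array weights gave 25 calls among the 121 genes of these lists, and 1075 calls among all 9352 genes tested.

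Myd88, the adaptor that carries the IL-1 receptor signal, had 39.2, 94.5, 19.2 and 46.9 FPKM in macrophages 5 to 8, against 14.3, 2.27, 3.18 and 14.8 FPKM in microglia 1 to 4. No library of either population overlapped the other, and the difference was 2.53 ± 0.67 (SE; limma adjusted p = 0.0413). The call was lost without microglia 2 (adjusted p = 0.0759), microglia 3 (0.110), macrophages 5 (0.0985), macrophages 6 (0.139) or macrophages 8 (0.132), with a pseudocount of 0.5 (0.0572) and without the intensity trend (0.0658). Without microglia 2 and 3 together the difference was 1.5 (adjusted p = 0.433). Of the 13 genes tested in IL-1 receptor signalling, Myd88 was the one called. At an unadjusted p below 0.05, 6 were higher (11.6% of all genes), and 12 were positive (67.1% of all genes), with a median of 0.79. Its partners Irak4 (11.8 ± 7.59 FPKM in macrophages and 3.15 ± 2.84 FPKM in microglia; adjusted p = 0.286) and Irak1 (16.8 ± 8.86 and 5.11 ± 3.01 FPKM; adjusted p = 0.319), the kinases recruited by MyD88, were not called by limma.

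At the receptors, Il1r1, the signalling receptor for both agonists, was low, with 0.0593 to 0.370 FPKM in macrophages against 0 to 2.45 FPKM in microglia. Il1r2, a decoy receptor that binds IL-1 without signalling, had 15.3, 8.30, 0.0366 and 18.7 FPKM in macrophages 5 to 8, and every microglial library listed it at 0. It failed the filter and was not tested, and it was low in macrophages 7, the macrophage library with the least Il1b. Of the 4 receptor genes tested 0 were called by limma, with 2 higher at an unadjusted p below 0.05. The most abundant, here and below by the mean over all 8 libraries, was Il18bp, whose product binds and neutralises IL-18, with 23.5 ± 14.5 FPKM in macrophages and 38.8 ± 24.2 FPKM in microglia (SD, n = 4 each; limma adjusted p = 0.592). Il1r1, Il1r2, Irak1 and Irak4, and the genes said below to have been picked, were named after their values were seen.

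Among genes that process or release IL-1β and IL-18, Nlrp1b, an inflammasome sensor with close genomic copies among which Cufflinks may have divided reads, had 3.65, 7.15, 4.79 and 4.03 FPKM in macrophages 5 to 8, against 0.106, 1.13, 0.0844 and 0.0756 FPKM in microglia 1 to 4. The populations did not overlap and the difference was 2.16 ± 0.56 (SE; limma adjusted p = 0.0388). The call was lost without microglia 1 (adjusted p = 0.125), 3 (0.109) or 4 (0.10), and without macrophages 5 (0.0912), 6 (0.0779) or 8 (0.106), but held without microglia 2 and 3 together (0.0350). It was also lost after quantile normalization (difference 1.33, adjusted p = 0.243) and median-of-ratios scaling (adjusted p = 0.0552). Casp1, which encodes the protease itself and was picked with the next gene after seeing values, had 19.7 ± 12.3 FPKM in macrophages and 17.9 ± 6.03 FPKM in microglia (difference 0.03, 95% interval -1.19 to 1.25). Pycard, the adaptor that joins sensor and caspase-1, had 39.1 ± 26.6 FPKM in macrophages and 76.2 ± 10.4 FPKM in microglia (SD, n = 4 each; -1.14 ± 0.53; limma adjusted p = 0.311). Of the 16 genes tested in this list, 11 were positive and 5 negative, with a median of 0.47 (-0.03 after quantile normalization).

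Of the TNF receptors and the shedding machinery, 0 of 4 tested genes were called by limma and 1 was higher at an unadjusted p below 0.05. That gene was Tnfrsf1b, the TNF receptor typical of myeloid cells, with 27.2, 49.4, 18 and 33.4 FPKM in macrophages 5 to 8, against 12.1, 6.21, 20.6 and 12 FPKM in microglia 1 to 4 (adjusted p = 0.303). Tnfrsf1a, the receptor with a death domain, had 22.2 ± 5.58 FPKM in macrophages and 20.5 ± 13.8 FPKM in microglia, and the protease gene Adam17 had 23.5 ± 9.26 and 18 ± 10.5 FPKM (SD, n = 4 each, both picked after seeing values). In TNF receptor signalling, limma called 0 of 19 genes, with 5 higher at an unadjusted p below 0.05 and a median of 0.55, which was -0.01 after quantile normalization and 0.90 without microglia 2 and 3. Rbck1, a subunit of the linear ubiquitin ligase complex and the most abundant of them, had 32.4 ± 10.1 FPKM in macrophages and 12.2 ± 5.84 FPKM in microglia with no overlap (adjusted p = 0.254).

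For NF-κB itself, limma called 0 of 10 subunit and kinase genes (2 higher at an unadjusted p below 0.05, median 0.47, or 0.02 after quantile normalization). Rela, the p65 subunit, had 24.8 ± 9.32 FPKM in macrophages and 10.8 ± 8.71 FPKM in microglia (adjusted p = 0.30). The 12 genes of NF-κB and MAP kinase feedback had a median of 1.15, against 0.82 after quantile normalization, 0.57 without microglia 2 and 3 and 0.40 with the Y-linked term, and again 0 were called (4 higher at an unadjusted p below 0.05). The most abundant, the MAP kinase phosphatase gene Dusp1, had 143 ± 94.7 FPKM in macrophages and 55.1 ± 34 FPKM in microglia (adjusted p = 0.276). Dusp1 is also an immediate-early gene, and the part of the handling response, whose sums are given above, was not tested. Genes of cytokine mRNA decay were positive in 11 of 11 cases (67.1% of all genes were positive) with 0 called by limma and 2 at an unadjusted p below 0.05; their median was 0.38, and -0.01 after quantile normalization. Zfp36, which encodes tristetraprolin, a protein that targets Tnf mRNA for decay, had 65.5, 94.2, 65.2 and 113 FPKM in macrophages 5 to 8, against 22, 24.7, 59.4 and 64.3 FPKM in microglia 1 to 4, and the populations did not overlap (1.09 ± 0.52; limma adjusted p = 0.329).

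Jak2 encodes a kinase that acts downstream of interleukin-6 and oncostatin M. It had 7.09, 19.1, 5.35 and 28.6 FPKM in macrophages 5 to 8, against 1.35, 0, 0.280 and 2.73 FPKM in microglia 1 to 4. Every macrophage library was above every microglial one, with a difference of 2.85 ± 0.73 (SE; limma adjusted p = 0.0354). The call was lost without microglia 1 (adjusted p = 0.0622) or 3 (0.0807), and without macrophages 5 (0.0666), 6 (0.118) or 8 (0.177); without microglia 2 and 3 together the difference was 2.16 (adjusted p = 0.160). Of the 18 JAK, STAT and SOCS genes, 16 were positive and 3 had an unadjusted p below 0.05, with a median of 0.74 (0.25 after quantile normalization). Socs3, the feedback inhibitor of gp130 signalling, had 53.3 ± 19.7 FPKM in macrophages and 19.6 ± 9.41 FPKM in microglia (adjusted p = 0.220), and Stat3 had 26.7 ± 10.7 and 24.0 ± 10.6 FPKM (SD, n = 4 each, both picked after seeing values).

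Of the receptors for interleukin-6 and oncostatin M, 0 of 4 tested genes were called by limma and 1 was higher at an unadjusted p below 0.05. That was Lifr, the leukaemia inhibitory factor receptor, which in mice can also carry oncostatin M signals, with 6.18, 16.2, 6.03 and 9.99 FPKM in macrophages against 2.61, 0.0570, 0.971 and 1.61 FPKM in microglia (adjusted p = 0.0963). Osmr, the specific oncostatin M receptor subunit, was at 0.203 to 0.740 FPKM in macrophages against 0.0416 to 0.815 FPKM in microglia and was not tested. Il11ra1, with the highest mean of the 4 over all 8 libraries though not within macrophages, had 4.50 ± 2.64 FPKM in macrophages and 8.67 ± 6.89 FPKM in microglia (adjusted p = 0.742). Both interleukin-10 receptor genes were well expressed although the ligand was not. Il10rb had 87.9 ± 37.3 FPKM in macrophages and 51.5 ± 19.7 FPKM in microglia, and Il10ra had 38.9 ± 17.0 and 19.8 ± 12.8 FPKM (SD, n = 4 each; adjusted p = 0.520 and 0.428 by limma). Lifr, Osmr and Il10ra were picked after seeing values.

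Other cytokines passed the filter in 8 of 33 cases, with 0 called by limma and 4 positive and 4 negative differences. The most abundant was Ebi3, a subunit of interleukin-27, with 17.7 ± 3.65 FPKM in macrophages and 20.6 ± 10.1 FPKM in microglia (adjusted p = 0.959). Csf1, the growth factor that maintains microglia and macrophages, was picked because its populations did not overlap: it had 3.53, 2.08, 0.771 and 4.53 FPKM in macrophages 5 to 8, against 7.79, 15.9, 9.12 and 12.5 FPKM in microglia 1 to 4 (adjusted p = 0.202). None of the other IL-1 family ligands (6 listed) and none of the other IL-6 family ligands (7 listed) passed the filter. The 8 cytokines described here therefore hold all the IL-1 and IL-6 family ligands of these lists with at least 1 FPKM in 4 libraries.

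**Figure D4:**
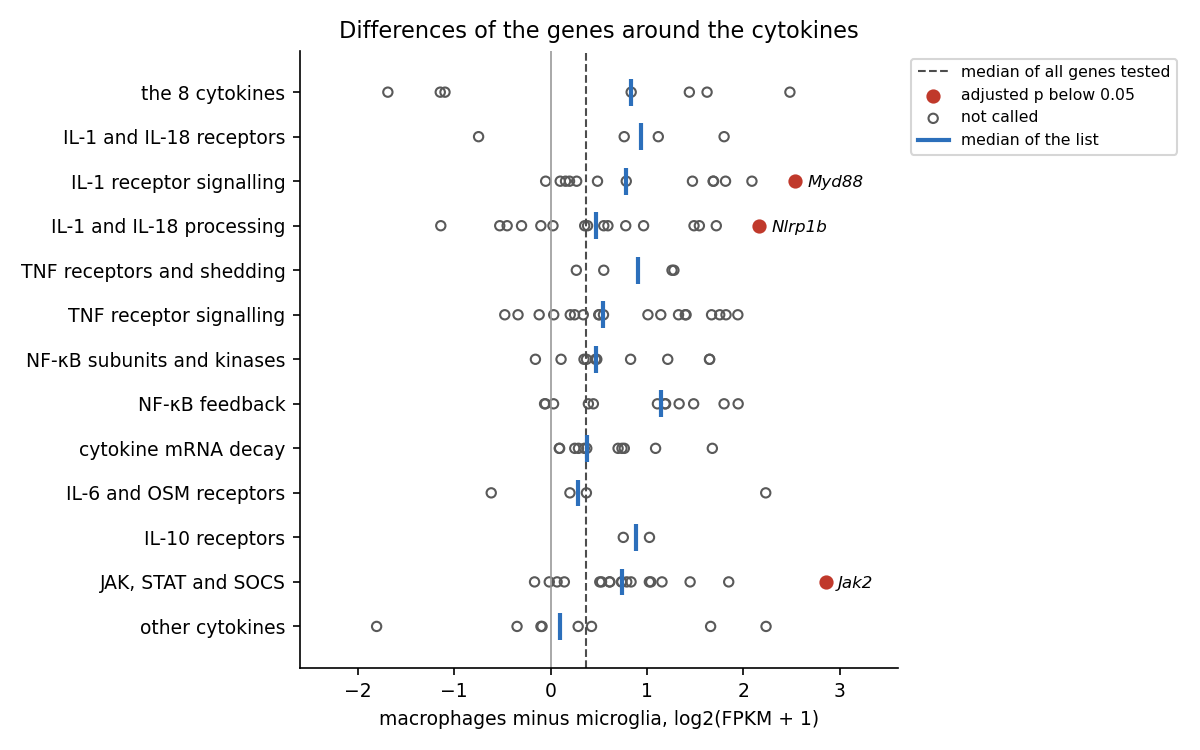
Difference of each tested gene (horizontal axis, macrophages minus microglia in log2(FPKM + 1) units) in the 8 cytokines and in 12 lists around them (rows), with the median of each list as a blue bar and the median of all tested genes, 0.37, as a dashed line. Filled points are the called genes Myd88, Nlrp1b and Jak2, and the cytokines spread from -1.69 (Tnf) to 2.48 (Il1b).

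Genes with the most similar pattern were named for each tested cytokine by the Pearson r of log2(FPKM + 1) over the 8 libraries, as a description of libraries that share depth and composition. For Il1b these were Mta3 (r = 0.971), Sept9 (0.969) and Nfam1 (0.969), of which Nfam1 encodes an immune receptor with an activation motif. For Il1a they were Abhd4 (0.946), Pla2g12a (0.939) and Gatm (0.922), and for Il1rn Eif1ax (0.986), Btbd9 (0.985) and Dpp3 (0.985). For Tnf they were Brp44l (0.990), Mcee (0.982) and Ipo4 (0.979), and for Il6 Mccc2 (0.909), Haus3 (0.900) and Atp10a (0.898). The genes nearest to Osm, Pgam5 (0.994), Znrd1 (0.992) and Jdp2 (0.989), were at 0 to 0.284 FPKM in microglia 2. Those nearest to Il18, Acvrl1 (0.974), Slc37a2 (0.949) and Carkd (0.946), were at 0 to 0.185 FPKM in the same library. These likenesses for Osm and Il18 thus include the low values of the library that stood apart. Single libraries also enter the others. Each gene named for Il1b and Il1rn was lowest in microglia 3, as were both cytokines. Each gene named for Tnf and Il6 was highest in microglia 2, again as were both cytokines.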

How the data were processed

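The authors deposited 1 table per library with FPKM per gene, made with Cufflinks 2.1.1 and bcl2fastq 1.8.4 on mm9, per the submitters' processing notes; the sources used here name no aligner or annotation. FPKM corrects for depth and transcript length but not for composition, and its values are not counts. Rows sharing a symbol were summed, and 9 symbols with a failed estimate were left out (22549 of 22558 used).

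Libraries were grouped by the tissue subtype in the labels. log2(FPKM + 1) was fitted with limma 3.58.1 in R 4.3.3 with an intensity trend, without covariates, two-sided, with Benjamini-Hochberg adjustment over 9352 genes reaching 1 FPKM in 4 or more libraries. The fit was checked on simulated, normally distributed values with the spread of the real genes. Genes given a change of 2 units of log2(FPKM + 1) were called in 22.9% of cases, and those given 4 in 88.1%. Depth was estimated from the smallest steps of low values, assuming fragments of 150 bases; no test used it.

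Members, lists and markers were chosen with earlier results of these data known. Named genes are the 8 cytokines, in each list the called genes (the 3 most abundant where more were called) or else the most abundant tested gene, and the 3 genes most like each cytokine. Alternatives covered the pseudocount (0.1 and 0.5), filter (none, 5 FPKM), scaling, intensity trend, array weights, an exact permutation test over 70 splits (smallest p 0.0286), a term for Y-linked expression, and leaving libraries out. Tables used Python 3.11.15 with pandas 2.3.3, numpy 2.4.6 and scipy 1.17.1.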

Additional observations from a re-analysis of the deposited data

Results flagged for a closer look

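A single library stood far from the other 3 of its group in 6 of 46 groups examined. This was measured as its gap to the nearest library divided by the range of the group, held against Dixon's critical value. For independent, normally distributed values such a gap arises in about 1 group in 20. FPKM and ratios need not be normally distributed and the groups share libraries, so that rate cannot be set against 6 of 46. Osm in macrophages 6 was 42.3 FPKM against 14.3 to 15.4 FPKM in the other macrophage libraries (gap ratio 0.960). Il1a in the same library was 44.7 FPKM against 5.73 to 12 FPKM (0.840). Macrophages 6 also had the largest FPKM sum over all genes, 512049 against 207077 to 300731 in the other macrophage libraries. Tnf in microglia 2 was 28.7 FPKM against 7.63 to 9.41 FPKM in the other microglial libraries (0.916). Nlrp1b in microglia 2 was 1.13 FPKM against 0.0756 to 0.106 FPKM (0.971). The ratio of Il1b to Il1a was 17.2 in macrophages 8 against 1.28 to 2.63 in the other macrophage libraries (0.915), and 1.55 in microglia 2 against 0 to 0.170 in the other microglial libraries (0.890). Microglia 2 accounts for 3 of these 6 and is also the library with 19.9% of tested genes listed at 0. The cause of these gaps was not tested.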

How the results depend on the processing

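Each cytokine was refitted under up to 21 alternatives. Of 146 such values, 142 kept their direction and their side of the threshold. Part of this was fixed beforehand. Changing the filter, leaving out the intensity trend and the exact test leave the difference itself unchanged. The exact test also cannot call a gene here. Il1a (-1.75, adjusted p = 0.0135) and Il1b (2.47, adjusted p = 0.00379) were called with array weights, which gave microglia 2 a weight of 0.254 and macrophages 5 a weight of 6.18. Leaving out 1 library moved Il1b between 1.51 and 3.34 and Il18 between -0.037 and 1.31; without microglia 2 Il1b was 3.34 and Il18 -0.037. The other cytokines kept their direction, Il1a between -1.68 and -0.64, Tnf between -2.24 and -1.07 and Osm between 0.72 and 2.38. The number of genes called was 136 with a pseudocount of 0.1, 50 with no filter, 132 with a filter of 5 FPKM, 336 with equal FPKM sums, 1075 with array weights, 25 with the term for Y-linked expression and 0 by the exact permutation test (714 unadjusted), which cannot call a gene here because its smallest adjusted p is 0.374. It ranged from 119 to 258 with 1 library left out, 119 without macrophages 8 and 122 without macrophages 5. Of the pathway genes, 0 were called with a pseudocount of 0.1, no filter or the Y-linked term (and, by construction, 0 by the exact test), 5 with equal sums, 25 with array weights, 1 without microglia 2 and 3, and 0 to 4 with 1 library left out. Il6 was not tested under the filter of 5 FPKM. The cause of these changes was not tested. No paired analysis was possible because the populations share no replicate numbers. With 4 libraries per population, Il1b spanned 12.6 to 128 FPKM within macrophages. The part of this spread between libraries in the lack of calls was not tested.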
